A study of Mus musculus with 56 samples.

Results

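The genes described are the 9 whose products release fatty acids from circulating triglyceride in adipose tissue, restrain that release, or take up and carry what is released: Lpl, Lmf1, Gpihbp1, Angptl4, Angptl8, Cd36, Vldlr, Fabp4 and Fabp5. They were found by symbol in the deposited table of visceral adipose tissue (VAT), where all 9 were listed among 25939 genes, and all 9 were read in each of the 56 libraries. Their identifiers are ENSMUSG00000015568 for Lpl, ENSMUSG00000002279 for Lmf1, ENSMUSG00000022579 for Gpihbp1, ENSMUSG00000002289 for Angptl4, ENSMUSG00000047822 for Angptl8, ENSMUSG00000002944 for Cd36, ENSMUSG00000024924 for Vldlr, ENSMUSG00000062515 for Fabp4 and ENSMUSG00000027533 for Fabp5, and gene positions below are from GENCODE M21 on GRCm38. The mice were female C57BL/6J animals of 9 weeks, kept under a 12 h light and 12 h dark cycle, and all had free access to chow for 7 days beforehand. For the next 7 days they received chow only in the light phase (daytime-restricted feeding, DRF) or only in the dark phase (nighttime-restricted feeding, NRF). VAT was taken from 4 mice per regimen at each of ZT0, ZT4, ZT8, ZT12, ZT16, ZT20 and ZT24, where zeitgeber time (ZT) counts hours from lights on. Each library was poly(A) RNA from the tissue of 1 mouse and holds all cell types of the depot, so that fewer cells of a type and less RNA per cell cannot be told apart.

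Lipoprotein lipase, the product of Lpl, cleaves triglyceride of chylomicrons and very low density lipoproteins at the capillary wall. Lmf1 encodes a chaperone of the endoplasmic reticulum that the lipase needs to fold, and GPIHBP1 carries the enzyme across endothelial cells and holds it in the capillary lumen. ANGPTL4 is an inhibitor of the lipase whose transcript is known to rise in fasted adipose tissue, while Angptl8 is known to rise on refeeding and with insulin. CD36 takes up long-chain fatty acids, the VLDL receptor binds triglyceride-rich lipoproteins, and FABP4 and FABP5 bind fatty acids in the cytosol.

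Levels are given as CPM, the reads of a gene scaled to library size, recovered from the deposited values, and differences on the log2(CPM + 1) scale, always as DRF minus NRF. Libraries held 31120415 to 41216503 recovered reads. The lowest value among the 9 genes was 391 reads. Standard errors of differences between groups use the spread of mice within groups, pooled over the 14 groups and moderated by limma along abundance. Those of mean levels, peak times and amplitudes use the spread of the 56 libraries around a fitted 24 h cosine per regimen. The labels do not say whether the mice were housed together. A pair of DRF libraries, ZT0 replicate 4 and ZT8 replicate 1, stood apart on the second principal component, 6.45 and 7.21 scaled median deviations from the median library. They carried 1183 and 519 CPM of a list of 6 epithelial genes (Epcam, Cdh1, Krt8, Krt18, Wfdc2 and Cldn3), against 9.18 to 72.4 CPM in the other 54 libraries. They also held the lowest values of Lpl, Fabp4, Gpihbp1 and Lmf1 among all 56 libraries. Calls for the 9 genes that changed without them are given below, amplitude differences as counts only. The tissue label was checked on 6 adipocyte genes (Adipoq, Plin1, Cidec, Lep, Cfd and Retn), none of which was at 0 in any library. Their summed level was 6432 to 19275 CPM under DRF and 15276 to 29100 CPM under NRF, and without the pair of libraries 11790 to 19275 CPM under DRF. In mean level, Cfd (log2 -1.37, adjusted p = 1.57e-10, limma) and Adipoq (-0.31, adjusted p = 0.00523) were lower under DRF, Lep (0.60, adjusted p = 0.00506) was higher, and Plin1, Cidec and Retn did not pass. The part of this shift in the values of the 9 genes was not tested.

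Across the 9 genes and 7 time points, 21 of 63 comparisons of DRF with NRF passed an adjusted p of 0.05 in limma, 13 higher and 8 lower under DRF. These were 33.3% of the comparisons, where 13.9% of all comparisons of 25913 genes passed (7.34% higher and 6.51% lower). The calls were spread unevenly, with 1 gene at ZT0 (10.5% of all genes passed there), 3 at ZT4 (19.5%), 4 at ZT8 (16.5%), 3 at ZT12 (16.1%), 3 at ZT16 (9.98%), 3 at ZT20 (13.1%) and 4 at ZT24 (11.3%). The rhythm itself, tested as the interaction of regimen with a 24 h cosine, differed for 6 of the 9 genes, against 36% of all genes. The mid-level of the fitted cosine, given below as the mean level, differed for 3 of 9, 2 higher and 1 lower, where 21.7% of all genes differed (11.4% higher and 10.3% lower). Angptl4 and Angptl8 held 12 of the 21 calls, Vldlr 4, Fabp5 and Lmf1 2 each and Gpihbp1 1, while Lpl, Cd36 and Fabp4 held none. Where a call changed with the processing, the adjusted p under that alternative follows it in parentheses, and "without replicate" and a number alone means that all mice of that number were left out. Amplitude differences, and rhythm calls by other tests, are followed as counts only. The exceptions are the limma F tests of Lpl under NRF and Vldlr under DRF, which are given singly. By single mice, the DRF and NRF groups did not overlap in 30 of the 63 comparisons, 25 higher and 5 lower under DRF. These were 1, 4, 2, 3, 5, 7 and 8 genes at ZT0, ZT4, ZT8, ZT12, ZT16, ZT20 and ZT24, where 9.88%, 24.4%, 11.7%, 21.7%, 18.9%, 19.7% and 15.5% of all genes did not overlap.

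**Figure D1:**
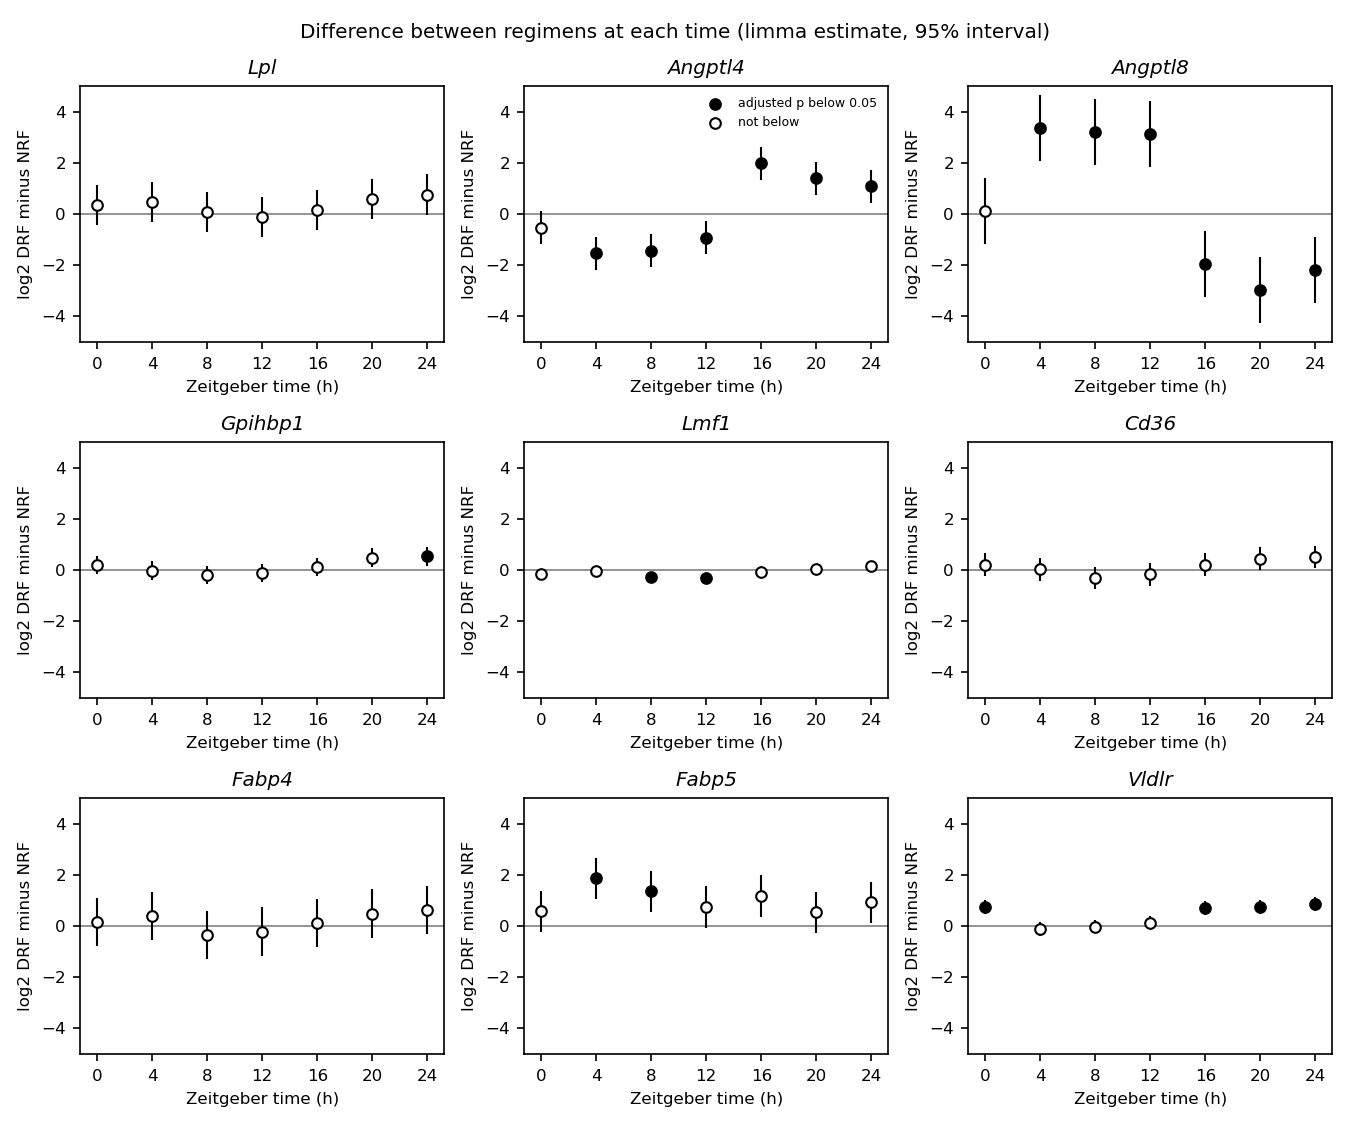
Difference between DRF and NRF for each of the 9 genes (y axis, log2(CPM + 1), DRF minus NRF) at each zeitgeber time (x axis, h), with points for the limma estimate from 4 mice per group, bars for its 95% interval and filled points where the adjusted p is below 0.05. Angptl4 is below 0 from ZT4 to ZT12 and above 0 from ZT16 to ZT24, and Angptl8 is the reverse.

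Angptl8 showed the largest swings of the 9 genes under both regimens, and the swings lay at opposite times of day. The gene lies at chr9:21835510-21837347 (+ strand) of GRCm38, within an intron of Dock6 on the other strand, and no exon of one overlaps an exon of the other. The 250 bases before its start are printed because they belong to the gene with the largest inverted rhythm of the 9. They are chr9:21835260-21835509 on the + strand of GRCm38 (RefSeq), and the capitals mark a match to the C/EBP letters TTGCNNAA, on the − strand, that starts 100 bases before the start of transcription.
Angptl8: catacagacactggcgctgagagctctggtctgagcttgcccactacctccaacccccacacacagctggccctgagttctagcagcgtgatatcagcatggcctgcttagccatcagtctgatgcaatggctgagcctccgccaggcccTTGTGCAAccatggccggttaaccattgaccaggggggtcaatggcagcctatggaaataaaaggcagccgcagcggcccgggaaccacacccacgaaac
The match is shared by 9.56% of the 32851 windows of this length, and it is a description of letters only.

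At ZT4 Angptl8 read 440.3, 364, 461 and 479.7 CPM in the 4 DRF mice and 63.6, 88.4, 18.4 and 29.3 CPM in the 4 NRF mice. At ZT8 Angptl8 read 135, 111, 376 and 237 CPM in the 4 DRF mice and 27.8, 8.27, 38.0 and 17.4 CPM in the 4 NRF mice. At ZT12 Angptl8 read 366, 252, 215 and 233 CPM in the 4 DRF mice and 23.9, 26.1, 39.5 and 30.1 CPM in the 4 NRF mice. In the light phase, when only DRF mice had food, all 12 DRF values lay above all 12 NRF values of these 3 times. The differences were 3.34 ± 0.64, 3.20 ± 0.64 and 3.11 ± 0.64 (log2, estimate ± SE; adjusted p = 0.000153, 0.000302 and 0.000414, limma), or 10.1-fold, 9.19-fold and 8.62-fold.

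At ZT16 Angptl8 read 43.2, 50.8, 55.8 and 71.4 CPM in the 4 DRF mice and 386, 365, 42.2 and 351 CPM in the 4 NRF mice. At ZT20 Angptl8 read 39.0, 52.0, 79.1 and 30.8 CPM in the 4 DRF mice and 409, 436, 459 and 252 CPM in the 4 NRF mice. At ZT24 Angptl8 read 38.0, 54.7, 31.3 and 92.0 CPM in the 4 DRF mice and 56.6, 342, 339.7 and 397 CPM in the 4 NRF mice. The order was turned around in the dark phase, without overlap at ZT20, with 1 NRF mouse below all DRF mice at ZT16 and with 1 NRF mouse inside the DRF range at ZT24. Angptl8 was lower under DRF by 3.89-fold, 7.89-fold and 4.50-fold (log2 -1.96 ± 0.64, -2.98 ± 0.64 and -2.17 ± 0.64; adjusted p = 0.0409, 0.000786 and 0.0195, limma). The calls at ZT16 and ZT24 were lost in 7 of 8 and 5 of 8 fits that left out a single library of those groups, with adjusted p of up to 0.154 at ZT16 without NRF replicate 1 and 0.0803 at ZT24 without NRF replicate 4. The ZT16 call was also lost on the deposited values (0.0605) and without replicate 1, 2 or 4 (0.144, 0.253 and 0.211), and the ZT24 call without replicate 2, 3 or 4 (0.156, 0.0877 and 0.121). At ZT0 Angptl8 read 31.8, 308, 265 and 132 CPM in the 4 DRF mice and 32.4, 139, 432 and 121 CPM in the 4 NRF mice. The groups overlapped, with the highest NRF mouse above all DRF mice, and the difference did not pass (log2 0.13 ± 0.64, 95% interval -1.15 to 1.42).

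The Angptl8 rhythm was called under NRF (adjusted p = 2.53e-06, MetaCycle-type test) and under DRF (adjusted p = 0.00471). Its fitted peak moved from ZT20.0 ± 0.47 h to ZT7.15 ± 0.66 h, a phase shift of 11.1 ± 0.81 h (CircaCompare-type fit), and the difference in rhythm passed with an adjusted p of 1.94e-10 in limma. With all mice of 1 replicate number left out, the DRF rhythm was no longer called without replicate 1, 3 or 4 (adjusted p = 0.0602, 0.0710 and 0.289). The amplitude was 2.18 ± 0.28 under NRF and 1.5 ± 0.29 under DRF (log2, ± SE), which did not pass as a difference (adjusted p = 0.593). From the lowest to the highest time point, group means spanned 18.2-fold under NRF and 9.03-fold under DRF. The mean level was higher under DRF by 0.60 ± 0.27, which did not pass (adjusted p = 0.1, limma), though it did without ZT24 (log2 0.81, adjusted p = 0.0264).

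Angptl4, at chr17:33773750-33781830 (− strand), ran the other way. At ZT4 Angptl4 read 141, 151, 147 and 182 CPM in the 4 DRF mice and 500.0, 240.0, 604 and 561 CPM in the 4 NRF mice. At ZT8 Angptl4 read 61.3, 143, 131 and 129.6 CPM in the 4 DRF mice and 316, 358, 184 and 383 CPM in the 4 NRF mice. At ZT12 Angptl4 read 113, 147, 102 and 98.0 CPM in the 4 DRF mice and 210.3, 185, 214 and 268 CPM in the 4 NRF mice. Angptl4 was thus lower in every DRF mouse than in every NRF mouse at each of these times. The falls were 2.90-fold, 2.69-fold and 1.91-fold (log2 -1.54 ± 0.32, -1.43 ± 0.32 and -0.93 ± 0.32; adjusted p = 0.000434, 0.0012 and 0.0382, limma). The low DRF value of 61.3 CPM at ZT8 came from replicate 1, the library with epithelial transcripts.

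At ZT16 Angptl4 read 659, 704, 491 and 627 CPM in the 4 DRF mice and 130.5, 136, 227 and 145 CPM in the 4 NRF mice. At ZT20 Angptl4 read 482, 608, 579 and 631 CPM in the 4 DRF mice and 166, 255, 231 and 227 CPM in the 4 NRF mice. At ZT24 Angptl4 read 507, 424, 426 and 437 CPM in the 4 DRF mice and 352, 149, 161 and 229 CPM in the 4 NRF mice. All 12 DRF values exceeded all 12 NRF values of these times. The rises were 3.93-fold, 2.63-fold and 2.13-fold (log2 1.98 ± 0.32, 1.39 ± 0.32 and 1.09 ± 0.32; adjusted p = 4.04e-05, 0.00167 and 0.0187, limma). At ZT0 Angptl4 read 503, 189.8, 267 and 161 CPM in the 4 DRF mice and 620.0, 304, 159 and 589 CPM in the 4 NRF mice. The groups overlapped, and the difference of -0.53 ± 0.32 did not pass (adjusted p = 0.321). Leaving out a single library ended the call in 6 of 8 fits at ZT12 and 3 of 8 fits at ZT24, where the adjusted p reached 0.104 (without NRF ZT12 replicate 4) and 0.0819 (without NRF ZT24 replicate 2). The ZT12 call was also lost on the deposited values (0.0706) and without replicate 1, 2, 3 or 4 (0.0606, 0.0637, 0.0872 and 0.237), and the ZT24 call without replicate 2, 3 or 4 (0.165, 0.0845 and 0.0833).

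Angptl4 was rhythmic under NRF (adjusted p = 0.0205) and under DRF (adjusted p = 4.07e-06, MetaCycle-type test), and its fitted peak moved from ZT4.41 ± 0.87 h to ZT19.6 ± 0.40 h. The NRF rhythm was no longer called without replicate 1, 2 or 4 (adjusted p = 0.793, 0.114 and 0.620). The shift was 8.83 ± 0.96 h, an advance when read the shorter way round the day. The amplitude was 0.63 ± 0.16 under NRF and 1.37 ± 0.16 under DRF, a difference of 0.74 ± 0.22 whose adjusted p was 0.071 in the CircaCompare-type fit. Group means spanned 2.88-fold under NRF, from ZT16 to ZT4, and 5.52-fold under DRF, from ZT8 to ZT16. No difference in mean level was found (log2 -0.04 ± 0.14, 95% interval -0.33 to 0.25), while the difference in rhythm had an adjusted p of 2.66e-09.

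Of the 9 genes, 4 were called rhythmic under NRF (Lpl, Angptl4, Angptl8 and Vldlr), where 26% of all genes were called, and 5 under DRF (Angptl4, Angptl8, Gpihbp1, Cd36 and Fabp4), where 15.2% were. Angptl4 and Angptl8 were the 2 called under both regimens (9.57% of all genes), and both had a shift of at least 8 h, as did 7.68% of all genes. The shift also passed its own test for both, and 9.25% of all genes were called under both regimens with such a shift, where 42.5% passed that test with or without called rhythms. No amplitude difference passed in the CircaCompare-type fit (1.44% of all genes passed), although 3 of the 9 had an unadjusted p below 0.05. With genes of mean CPM below 1 left out 1 passed, and without the 2 DRF libraries 1 passed. Without those 2 libraries Lpl was also called rhythmic under DRF, so that 6 genes were called there (4930 of all 25913 genes). Called under both regimens with a shift that passed were then 3 genes, Lpl among them (2817 of all genes).

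**Figure D2:**
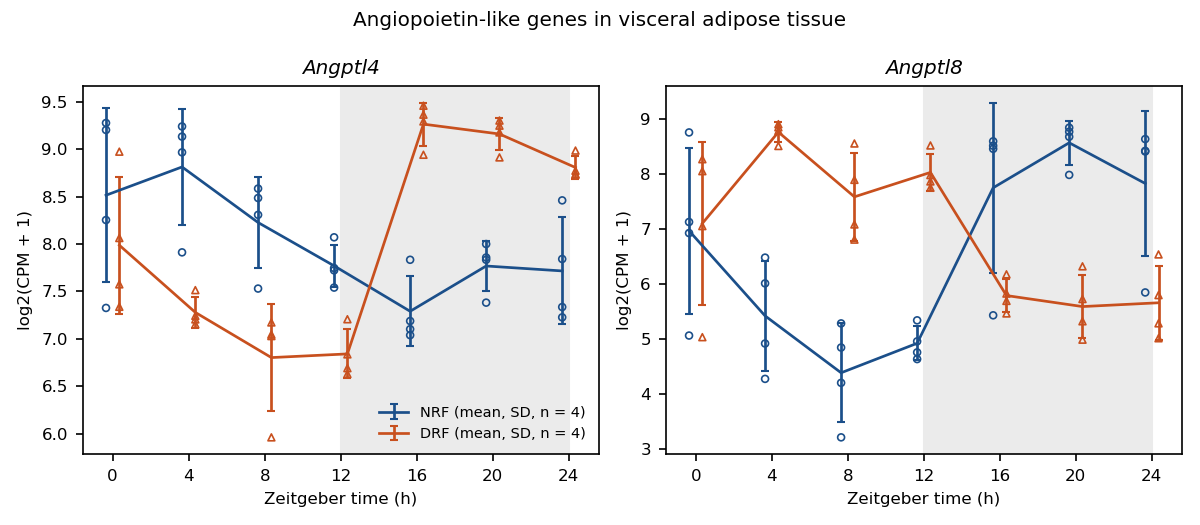
Angptl4 and Angptl8 in VAT (y axis, log2(CPM + 1)) against zeitgeber time (x axis, h; grey, dark phase), with open symbols for single mice and lines with bars for the mean and SD of 4 mice. Angptl8 is high at ZT4 to ZT12 under DRF and at ZT16 to ZT24 under NRF, and Angptl4 is high at ZT16 to ZT24 under DRF and highest at ZT4 under NRF.

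Per kilobase of exon, the balance of the 2 angiopoietin-like transcripts changed sign within each day. Under DRF, Angptl8 exceeded Angptl4 in all 4 libraries at each of ZT4, ZT8 and ZT12, by a mean log2 ratio of 3.42 ± 0.19, 2.72 ± 0.82 and 3.12 ± 0.38 (SD). It was below Angptl4 in all 4 at ZT16, ZT20 and ZT24, with mean log2 ratios of -1.57, -1.68 and -1.25. Under NRF, Angptl8 exceeded Angptl4 in 3, 4 and 3 of 4 libraries at ZT16, ZT20 and ZT24, with mean log2 ratios of 2.38, 2.73 and 2.04. The NRF libraries in which it did so at ZT4, ZT8 and ZT12 were 1, 0 and 0 of 4. At ZT0 both regimens held libraries of either kind, 3 of 4 under DRF and 2 of 4 under NRF.

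Some mice that departed from their group for one of these genes departed in the opposite sense for the other. Under NRF at ZT16, replicate 3 held 42.2 CPM of Angptl8, the lowest of its group, and 227 CPM of Angptl4, the highest. Under NRF at ZT24, replicate 1 held 56.6 CPM of Angptl8 and 352 CPM of Angptl4, again the lowest and the highest. Under DRF at ZT0, replicate 1 held 31.8 CPM of Angptl8 and 503 CPM of Angptl4. These 3 mice were chosen after their values were seen. Over all 14 groups, the mouse lowest in Angptl8 was the highest in Angptl4 in 7 groups, these 3 mice among them. The mouse highest in Angptl8 was the lowest in Angptl4 in 4 groups. With 4 mice per group, unrelated values would match in about 1 group of 4, and the counts were not tested against this.

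Lpl itself moved far less. The gene, at chr8:68880491-68907448 (+ strand), ranked 32nd of all genes by median CPM per kilobase, with 936 CPM per kilobase, below Fabp4 (2565, ranked 9th) and close to Cd36 (904). At ZT4 Lpl read 10815, 11337, 11415 and 11671 CPM in the 4 DRF mice and 9274, 7772, 7714 and 7830.1 CPM in the 4 NRF mice. At ZT16 Lpl read 10931, 10093, 9878 and 10596 CPM in the 4 DRF mice and 7897, 9855, 9808 and 9297 CPM in the 4 NRF mice. At ZT20 Lpl read 10167, 12409.6, 11794 and 11196 CPM in the 4 DRF mice and 6736, 6932, 8021 and 8577 CPM in the 4 NRF mice. DRF values lay above NRF values without overlap at these 3 times. At ZT24 Lpl read 10927, 10732, 14116 and 12463 CPM in the 4 DRF mice and 7477, 6591, 6533 and 7735 CPM in the 4 NRF mice. ZT24 showed the widest gap between the lowest DRF mouse and the highest NRF mouse. At ZT0, ZT8 and ZT12 the groups overlapped, with the DRF range reaching down to 5827 CPM at ZT0 replicate 4, 4508 CPM at ZT8 replicate 1 and 6396 CPM at ZT12 replicate 4.

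The mean level of Lpl was 1.22-fold higher under DRF (log2 0.28 ± 0.14, 95% interval 0.01 to 0.56), with an adjusted p of 0.146 in limma. This call depended on the fit. The standard deviation that limma used for Lpl, after moderation along the trend with abundance, was 0.55 where that of its own values was 0.28. The difference passed on the deposited values (0.0447), with a pseudocount of 0.1 (0.0265), with genes of mean CPM below 1 left out (0.00648), without the 2 DRF libraries (0.00836) and in limma voom (0.00253), and without the 2 libraries the difference was 0.36. At ZT24 the estimate was 0.76 ± 0.39 (adjusted p = 0.223), and it passed with a pseudocount of 0.1 (0.0486), with genes of mean CPM below 1 left out (0.0127) and in limma voom (0.00547). At ZT20 it was 0.59 ± 0.39 (adjusted p = 0.385), and it passed with genes of mean CPM below 1 left out (0.0495) and in limma voom (0.0288). The rhythm difference did not pass (adjusted p = 0.331), but did with genes of mean CPM below 1 left out (0.0261) and in limma voom (0.0108). Lpl was rhythmic under NRF (adjusted p = 0.025, peak ZT12.4 ± 1.69 h). That call was lost on the deposited values (0.0842), without ZT24 (0.358) and without replicate 3 or 4 (1 and 0.458). It was also lost in the limma F test of the cosine terms (adjusted p = 0.567). Under DRF Lpl was not called rhythmic (adjusted p = 0.354), and it was called without the 2 libraries (adjusted p = 0.0261). Amplitudes were alike in size, 0.18 ± 0.07 and 0.18 ± 0.07, and small beside those of Angptl4 and Angptl8.

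Lmf1, at chr17:25579085-25662826 (+ strand), had the lowest level per kilobase of the 9 genes, 1.62 CPM per kilobase at the median, and the narrowest spread, with a standard deviation of 0.14 on the log2 scale. At ZT12 Lmf1 read 20.1, 18.6, 19.6 and 21.2 CPM in the 4 DRF mice and 25.5, 23.9, 24.5 and 26.4 CPM in the 4 NRF mice. Every DRF mouse lay below every NRF mouse, by 1.25-fold (log2 -0.32 ± 0.10, adjusted p = 0.0163, limma). The call was lost without the single library DRF ZT12 replicate 2 (adjusted p = 0.0551), and also on the deposited values (0.111) and without replicate 2, 3 or 4 (0.0876, 0.0775 and 0.0637). At ZT8 the estimate was -0.27 ± 0.10 (adjusted p = 0.0458), and without DRF replicate 1, which read 13.2 CPM beside 20.3 to 22.0 CPM in the other 3 DRF mice, it was -0.11 (adjusted p = 0.419). This call was also lost without NRF ZT8 replicate 1, 2 or 3 (adjusted p = 0.0709, 0.104 and 0.111), and on the deposited values (0.139), without ZT24 (0.0648), without the 2 DRF libraries (0.373) and without replicate 1, 2 or 3 (0.451, 0.0592 and 0.14). At ZT24 the order was reversed without overlap, with 21.9 to 23.8 CPM in the DRF mice and 19.2 to 21.7 CPM in the NRF mice. At ZT0, the same clock time, the groups overlapped, with 17.5 to 23.9 CPM under DRF and 21.3 to 23.7 CPM under NRF. Neither of these times passed in limma. Over the day, Lmf1 was 1.08-fold lower under DRF (log2 -0.11 ± 0.04, adjusted p = 0.0275, limma). Its rhythm differed between regimens (adjusted p = 0.0163, limma) although no rhythm was called within either one. The mean level call was lost on the deposited values (adjusted p = 0.146) and without replicate 1, 2 or 3 (0.0984, 0.0599 and 0.152). The rhythm call was lost on the deposited values (adjusted p = 0.168), without ZT24 (0.15) and without replicate 1, 2 or 3 (0.0756, 0.0829 and 0.065).

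Gpihbp1, at chr15:75596628-75599481 (+ strand), was higher under DRF at ZT24 by the test. At ZT20 Gpihbp1 read 116, 132, 119 and 119.8 CPM in the 4 DRF mice and 91.7, 85.7, 87.1 and 81.1 CPM in the 4 NRF mice. At ZT24 Gpihbp1 read 116, 117, 104 and 115 CPM in the 4 DRF mice and 79.2, 67.5, 69.9 and 98.1 CPM in the 4 NRF mice. The groups did not overlap at either time. The difference at ZT24 was 1.45-fold (log2 0.53 ± 0.18, adjusted p = 0.0406, limma), and the call was lost in 7 of 8 fits without a single library of these groups, with an adjusted p of up to 0.127 (without NRF ZT24 replicate 2). It was also lost on the deposited values (0.112), with libraries scaled by total reads (0.053) and without replicate 1, 2 or 3 (0.0772, 0.302 and 0.138). At ZT20 it was 1.40-fold (log2 0.49 ± 0.18, adjusted p = 0.0578), and it passed with median-of-ratios scaling (0.0453), with libraries scaled by total reads (0.0409), with genes of mean CPM below 1 left out (0.0362) and without the 2 DRF libraries (0.00342). At ZT0, the same clock time as ZT24, the groups overlapped and the estimate was 0.19 ± 0.18 (adjusted p = 0.571), and it passed without the 2 DRF libraries (0.0157) and without replicate 4 (0.0406). The rhythm was called under DRF with a peak at ZT19.2 ± 0.92 h (adjusted p = 0.029) and not under NRF (adjusted p = 0.171, 0.0187 on the deposited values). The DRF call was lost on the deposited values (0.0908), without ZT24 (0.26) and without replicate 1, 2 or 3 (0.574, 0.414 and 0.142). The rhythm differed between regimens (adjusted p = 0.00541), though not without replicate 1 or 2 (0.0556 and 0.106). GPIHBP1 is a protein of endothelial cells. A list of 7 endothelial genes summed to 546 to 1221 CPM under DRF and 748 to 1134 CPM under NRF. Without the 2 DRF libraries the DRF range was 587 to 1221 CPM. None of the 7 was higher and 2 (Tek and Emcn) were lower in mean level under DRF. At each of ZT20 and ZT24, 1 of the 7 passed as higher and 1 as lower under DRF in limma. Of all genes, 13.1% and 11.3% passed at these times. The sum averaged 1055 CPM under DRF and 922 CPM under NRF at ZT20, and 993 and 988 CPM at ZT24. The part of this list in the Gpihbp1 values was not tested.

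**Figure D3:**
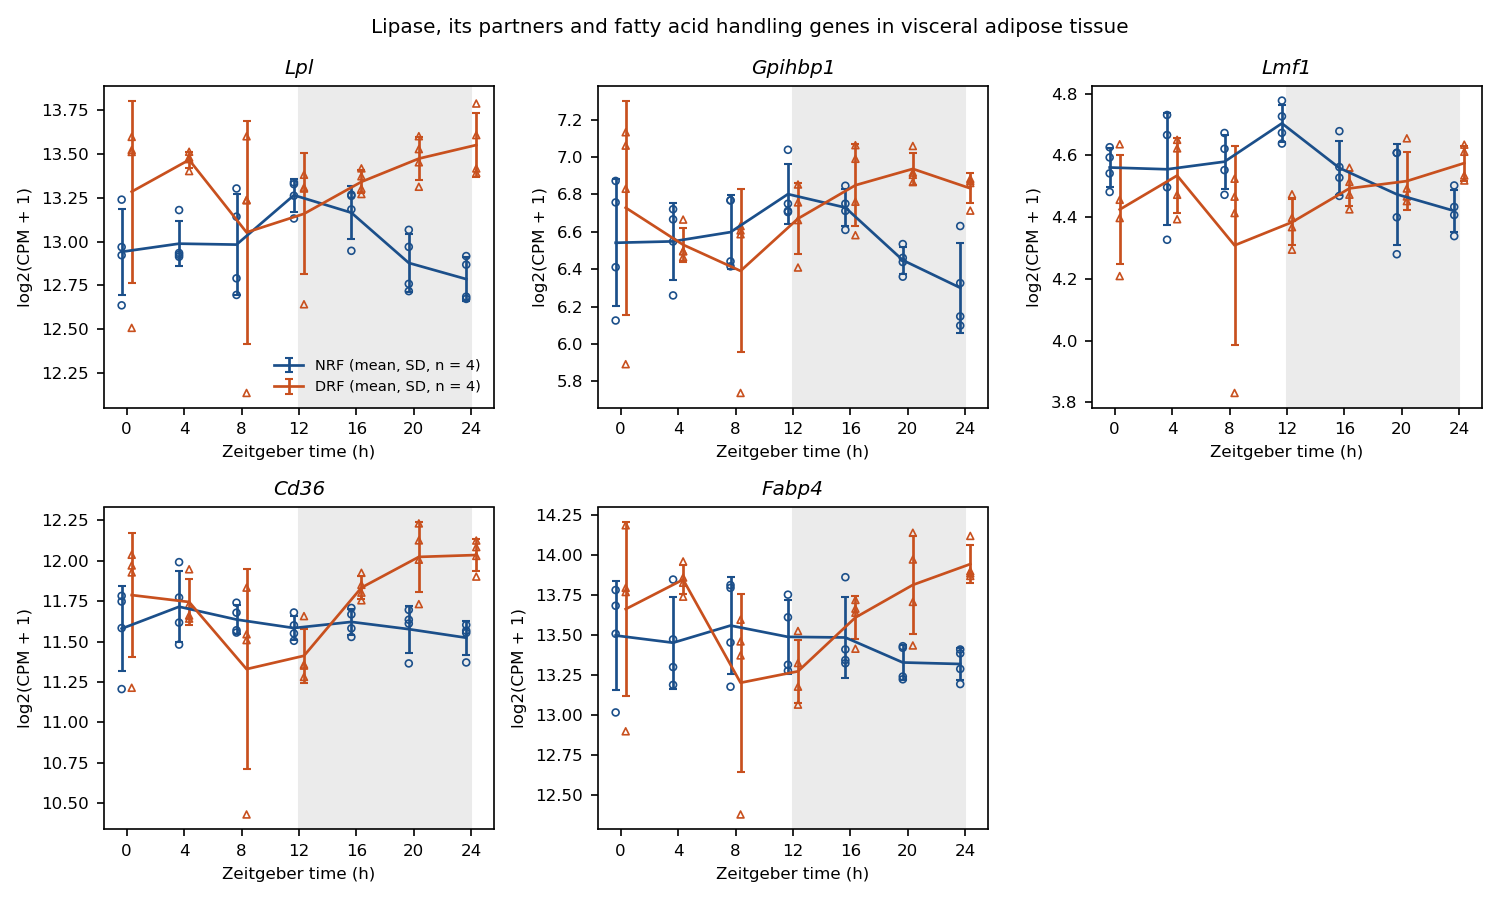
Lpl, Gpihbp1, Lmf1, Cd36 and Fabp4 in VAT (y axis, log2(CPM + 1), own range for each gene) against zeitgeber time (x axis, h; grey, dark phase), with open symbols for single mice and lines with bars for the mean and SD of 4 mice. The low single points at ZT0 and ZT8 under DRF are the pair of libraries with epithelial transcripts, and at ZT24 the DRF values of all 5 genes lie above the NRF values.

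Neither Cd36 nor Fabp4 had a called rhythm under NRF, and both were highest at the end of the dark phase under DRF. Cd36, at chr5:17781690-17888801 (− strand), read 3401, 4809, 4471 and 4115 CPM in the 4 DRF mice at ZT20 and 2636, 3317, 3127 and 3179.8 CPM in the 4 NRF mice. At ZT24 Cd36 read 4183, 3827, 4468 and 4344 CPM in the 4 DRF mice and 3109, 3006, 2646 and 3033 CPM in the 4 NRF mice. At ZT12 Cd36 read 2623, 2611, 3229.6 and 2487 CPM in the 4 DRF mice and 3104, 2905, 3279.9 and 2998 CPM in the 4 NRF mice. The groups were apart at ZT20 and ZT24, as at ZT16, and overlapped at ZT12, where 3 of 4 DRF mice lay below all NRF mice. No single time passed in limma for Cd36, with estimates from -0.31 at ZT8 to 0.51 ± 0.22 at ZT24 (adjusted p = 0.127). The ZT24 difference passed with genes of mean CPM below 1 left out (0.0372), without the 2 DRF libraries (0.026) and in limma voom (0.0372). Its rhythm differed with an adjusted p of 0.018, a call that was lost on the deposited values (0.0866), without ZT24 (0.0968) and without replicate 1, 2, 3 or 4 (0.126, 0.1, 0.0889 and 0.0533). Under NRF the level was flat, with an amplitude of 0.05 ± 0.07 and time point means within 1.14-fold. Under DRF the amplitude was 0.34 ± 0.06 with a peak at ZT21.2 ± 0.72 h (adjusted p = 0.00786), a call lost on the deposited values (0.123), without ZT24 (0.072) and without replicate 1, 2 or 3 (0.0992, 0.429 and 0.148).

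The 250 bases before 1 start of Cd36 are printed because Cd36 gained a called rhythm under DRF. They are chr5:17835897-17836146 on the − strand of GRCm38 (RefSeq), and capitals mark the nuclear receptor half-site AGGTCA on the − strand of the window, 228 bases before the start, and CCAAT, 195 bases before it.
Cd36: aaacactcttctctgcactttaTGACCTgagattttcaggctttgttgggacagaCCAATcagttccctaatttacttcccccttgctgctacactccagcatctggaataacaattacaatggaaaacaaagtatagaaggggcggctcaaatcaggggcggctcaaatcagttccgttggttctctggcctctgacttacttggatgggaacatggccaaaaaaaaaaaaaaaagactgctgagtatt
The half-site letters occur in 14% of windows and CCAAT in 33.8%.

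Fabp4, at chr3:10204088-10208576 (− strand), read 14980.1, 15152, 17825 and 15294 CPM in the DRF mice at ZT24 and 10699.8, 10884, 10002 and 9366 CPM in the NRF mice. At ZT8 Fabp4 read 5316, 10607, 12387 and 11274 CPM in the 4 DRF mice and 11219, 14223, 9259 and 14398 CPM in the 4 NRF mice. The groups were apart at ZT20 and ZT24 and overlapped at the other 5 times. No difference passed for Fabp4, the largest being 0.63 ± 0.47 at ZT24 (adjusted p = 0.464, limma, and 0.0361 in limma voom), where the standard deviation used was 0.66 and its own 0.29. The mean level did not pass as different (log2 0.12 ± 0.17, 95% interval -0.21 to 0.45). The rhythm was called under DRF with a peak at ZT22.7 ± 1.01 h (adjusted p = 0.0128) and not under NRF (adjusted p = 1). The DRF call was lost on the deposited values (0.986), without ZT24 (0.172) and without replicate 1, 2 or 3 (0.108, 0.323 and 0.82). The test of the difference in rhythm had an adjusted p of 0.366, and it passed with genes of mean CPM below 1 left out (0.0176) and in limma voom (0.00567).

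Vldlr and Fabp5 were the 2 genes whose mean level passed as higher under DRF, which was not tested against the other 7. Vldlr, at chr19:27216484-27254231 (+ strand), has 2 starts in the RefSeq table, and the 250 bases before each are printed because the transcript counts do not separate them. They are chr19:27216234-27216483 and chr19:27216770-27217019 on the + strand of GRCm38. Capitals mark a match to the C/EBP letters TTGCNNAA, on the − strand 116 bases before the first start, and to CCAAT, on the − strand 78 bases before the second.
Vldlr start 1: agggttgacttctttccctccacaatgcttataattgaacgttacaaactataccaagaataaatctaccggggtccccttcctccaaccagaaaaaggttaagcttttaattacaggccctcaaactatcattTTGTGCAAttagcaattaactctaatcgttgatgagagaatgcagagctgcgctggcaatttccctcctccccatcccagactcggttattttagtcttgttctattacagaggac
Vldlr start 2: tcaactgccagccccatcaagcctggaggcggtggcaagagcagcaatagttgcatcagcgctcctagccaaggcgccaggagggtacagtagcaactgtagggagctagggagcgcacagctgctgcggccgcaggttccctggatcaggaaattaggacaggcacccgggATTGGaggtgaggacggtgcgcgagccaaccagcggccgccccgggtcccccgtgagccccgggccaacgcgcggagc
The C/EBP letters, added after the sequences had been read, were found in the windows of Angptl8 and Vldlr start 1 among the 5 windows of Angptl8, Vldlr, Cd36 and Lmf1. Also searched, on both strands and with overlaps kept, were the E-box CACGTG (6.02% of windows), the DR1 element (0.0335%), TGTTTAC (3.17%), the glucocorticoid response element (0.00913%) and TATAAA (12.4%), and none of these letters were in the 5 windows.

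At ZT16 Vldlr read 105, 94.3, 97.9 and 96.2 CPM in the 4 DRF mice and 57.8, 65.2, 70.0 and 48.9 CPM in the 4 NRF mice. At ZT20 Vldlr read 75.0, 93.7, 95.2 and 93.3 CPM in the 4 DRF mice and 54.7, 49.4, 49.9 and 55.7 CPM in the 4 NRF mice. At ZT24 Vldlr read 119.8, 90.9, 106 and 105 CPM in the 4 DRF mice and 68.8, 58.3, 53.0 and 49.6 CPM in the 4 NRF mice. Every DRF mouse was above every NRF mouse at each of these times. At ZT0 Vldlr read 130.2, 103, 94.9 and 81.1 CPM in the 4 DRF mice and 67.4, 67.2, 43.8 and 65.3 CPM in the 4 NRF mice. The order was the same at ZT0. The rises were 1.67-fold at ZT0, 1.63-fold at ZT16, 1.68-fold at ZT20 and 1.83-fold at ZT24 (log2 0.74 ± 0.13, 0.70 ± 0.13, 0.75 ± 0.13 and 0.87 ± 0.13; adjusted p = 0.00015, 0.000287, 5.56e-05 and 1.45e-05, limma). At ZT4, ZT8 and ZT12 the groups overlapped, with estimates of -0.12, -0.02 and 0.13.

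Vldlr was 1.32-fold higher over the day (log2 0.40 ± 0.06, adjusted p = 2.22e-06, limma), and the rhythm differed (adjusted p = 1.03e-05). Under NRF the rhythm was called with a peak at ZT9.03 ± 0.79 h and an amplitude of 0.30 ± 0.06 (adjusted p = 0.00172). The NRF call was lost without replicate 3 (0.0854). Under DRF it was not called by the MetaCycle-type test (adjusted p = 0.596), whereas the limma F test of the cosine terms gave 0.00727 with a fitted peak at ZT18.7 ± 0.89 h and an amplitude of 0.25 ± 0.07. The tests thus gave different calls for the Vldlr rhythm under DRF.

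Fabp5, at chr3:10012548-10016607 (+ strand), read 868, 665, 1074 and 1017 CPM in the 4 DRF mice at ZT4 and 300.1, 439, 123 and 222 CPM in the 4 NRF mice. At ZT8 Fabp5 read 379, 347, 619 and 799 CPM in the 4 DRF mice and 204, 107, 426 and 162 CPM in the 4 NRF mice. At ZT16 Fabp5 read 627, 556, 824 and 789 CPM in the 4 DRF mice and 224, 492, 229.9 and 342 CPM in the 4 NRF mice. DRF mice were above NRF mice without overlap at ZT4 and ZT16, as at ZT24, and 2 DRF mice fell within the NRF range at ZT8. The rises were 3.62-fold at ZT4 and 2.55-fold at ZT8 (log2 1.86 ± 0.40 and 1.35 ± 0.40; adjusted p = 0.000713 and 0.015, limma). The ZT8 call was lost without the single libraries NRF replicate 2 (adjusted p = 0.0954) or DRF replicate 4 (0.0735), and without replicate 2 or 4 (0.09 and 0.193) in both regimens, and at ZT16 the adjusted p was 0.0541, falling below 0.05 in 9 fits that left out a single library, and with a pseudocount of 0.1 (0.0484), with libraries scaled by total reads (0.0453), with genes of mean CPM below 1 left out (0.0319), without the 2 DRF libraries (0.0365) and in limma voom (0.0495). All 7 estimates were above 0, from 0.53 at ZT20 upward.

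Over the day Fabp5 was 2.05-fold higher under DRF (log2 1.04 ± 0.16, adjusted p = 1.73e-06, limma), the largest mean difference of the 9 genes. No rhythm was called for Fabp5 under NRF (adjusted p = 0.599) or DRF (adjusted p = 1), and none of the difference in rhythm (adjusted p = 0.319). Fabp5 also varied most between mice of a group after Angptl8, with a standard deviation of 0.59. FABP5 is abundant in macrophages as well as adipocytes. A list of 6 macrophage genes (Adgre1, Csf1r, Cd68, Mrc1, Lyz2 and C1qa) summed to 659 to 1265 CPM under DRF and 783 to 1963 CPM under NRF. Without the 2 DRF libraries the DRF range was 699 to 1265 CPM. Under DRF 3 of the 6 macrophage genes were lower and none was higher, and their part in the Fabp5 values was not tested. Processed copies of Fabp5 exist in the mouse genome, and how their reads were assigned is not known here.

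**Figure D4:**
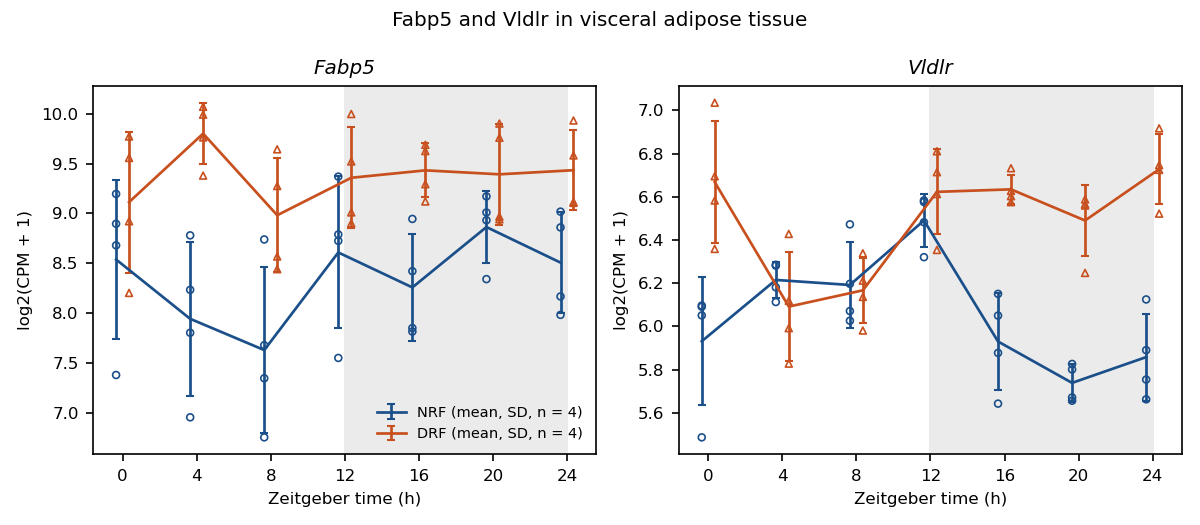
Fabp5 and Vldlr in VAT (y axis, log2(CPM + 1)) against zeitgeber time (x axis, h; grey, dark phase), with open symbols for single mice and lines with bars for the mean and SD of 4 mice. DRF means of Fabp5 lie above NRF means at all 7 times, and those of Vldlr at ZT0, ZT12, ZT16, ZT20 and ZT24.

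To ask whether the regimens still differed once the feeding phases were laid over each other, DRF groups were compared with NRF groups 12 h away (DRF ZT4 with NRF ZT16, and so on, with ZT0 and ZT24 averaged). Of 54 such comparisons, 6 passed, 5 higher and 1 lower under DRF. This was 11.1%, where 7.06% of all genes' comparisons passed (3.75% higher and 3.3% lower). The shares over all genes were 12.6%, 1.05% and 3.09% for 4, 8 and 12 h into the phase with food, and 10.4%, 9.69% and 5.51% for 4, 8 and 12 h into the phase without.

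No aligned comparison passed for Angptl8, with estimates from -0.98 to 1.46 and adjusted p of 0.127 or more. The intervals were wide, -0.28 to 2.30 at 4 h into the food phase and 0.34 to 2.58 at the end of the phase without food, and the latter passed without DRF ZT0 replicate 1 (log2 1.80, adjusted p = 0.0351) and without ZT24 (0.0425). Angptl4 was close to equal 4 h into the food phase (log2 -0.01 ± 0.32, 95% interval -0.66 to 0.63). At the end of the food phase it was 2.42-fold lower under DRF (log2 -1.28 ± 0.28, adjusted p = 0.00462, limma), and without replicate 4 the call was lost (log2 -1.07, adjusted p = 0.0951). That is the comparison of DRF ZT12, at 6.84 ± 0.26 (log2, mean ± SD), with NRF ZT0 and ZT24, at 8.52 ± 0.92 and 7.72 ± 0.56. Both NRF groups stand for the same clock time, and NRF ZT0 held mice from 159 to 620.0 CPM. At 8 h into the phase without food the estimate was 0.93 ± 0.32 (adjusted p = 0.0537), and it passed in 9 fits that left out a single library, and with a pseudocount of 0.1 (0.0497), with genes of mean CPM below 1 left out (0.0328), without the 2 DRF libraries (0.0288) and without replicate 1 (0.0359).

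Fabp5 stayed higher under DRF at 3 of 6 aligned times, by 2.91-fold at 4 h into the food phase and by 2.81-fold and 3.39-fold at 4 and 8 h into the phase without food (adjusted p = 0.00828, 0.0121 and 0.0035, limma). The call at 4 h into the phase without food was lost without NRF ZT4 replicate 3 (adjusted p = 0.0962). Leaving out a replicate number ended each of the 3 calls at least once, with an adjusted p of 0.0663 (without replicate 4), 0.184 (without replicate 3) and 0.193 (without replicate 2). Vldlr stayed higher at the end of the food phase (log2 0.73 ± 0.11, adjusted p = 6.77e-05) and 4 h into the phase without food (log2 0.42 ± 0.13, adjusted p = 0.0326). The latter call was lost in 6 of 8 fits without a single library, with an adjusted p of up to 0.108 (without NRF ZT4 replicate 3), and on the deposited values (0.0573), with libraries scaled by total reads (0.168) and without replicate 1, 2, 3 or 4 (0.0761, 0.146, 0.136 and 0.0529). No aligned comparison passed for Lpl, Lmf1, Gpihbp1, Cd36 or Fabp4.

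**Figure D5:**
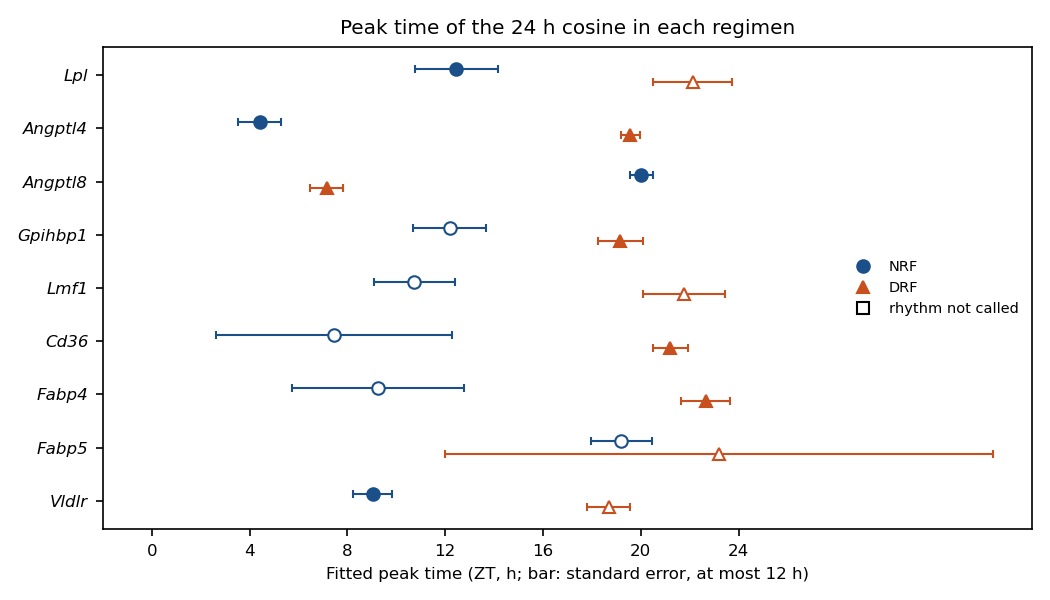
Fitted peak time of a 24 h cosine (x axis, ZT in h) for each of the 9 genes (y axis) under NRF (circles) and DRF (triangles), with bars for the standard error and open symbols where the rhythm was not called. Angptl4 and Angptl8 have filled symbols in both regimens, at opposite sides of the day, and the DRF peaks of 7 of the 9 genes fall between ZT18 and ZT23. Of these 7, Lpl, Lmf1 and Vldlr had no called rhythm under DRF.

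The wider pathway was read from 7 lists of 42 genes, of which 41 were measured. Of these, 13 differed in rhythm, against 36% of all genes, and 12 in mean level, 7 higher and 5 lower under DRF, against 21.7%. Rhythms were called for 12 under NRF (26% of all genes) and 7 under DRF (15.2%), and the 5 called under both (9.57%) were all shifted by 8 h or more (7.68%). The median difference in mean level over the 41 genes was 0.0034.

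Among genes of lipase maturation and cleavage (Sel1l, Lmf2, Furin, Pcsk5, Pcsk6, Sdc1 and Hspg2), 3 of 7 differed in rhythm and 4 in mean level, 3 higher and 1 lower. Furin, a proprotein convertase that cleaves both the lipase and its angiopoietin-like inhibitors, was higher under DRF from ZT4 to ZT12 (log2 0.68, 0.75 and 0.76) and lower at ZT20, ZT24 and ZT0 (-0.56, -0.52 and -0.37), with an adjusted p of 2.62e-12 for the rhythm. Its peak moved from ZT20.6 to ZT9.0. Pcsk5, a related convertase, was lower over the day (log2 -0.44, adjusted p = 3.82e-05), and Hspg2, a basement membrane proteoglycan, was higher (0.33, adjusted p = 0.000168). Sel1l, a subunit of the machinery that degrades proteins of the endoplasmic reticulum, was higher by 0.14 (adjusted p = 0.000109).

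Among the other genes of lipoprotein uptake, 2 were higher and 1 was lower in mean level. The mean level of Lrp8, a receptor of the same family as Vldlr, was higher under DRF (0.42, adjusted p = 0.000144, limma). Lrp8 was low, with an average of 1.03 CPM over all libraries. Lrpap1, a chaperone of the family, was also higher (0.52, adjusted p = 2.72e-07), and Lrp1 was lower (-0.24, adjusted p = 0.000579). Of 3 other lipases, Lipg (endothelial lipase) differed in rhythm (adjusted p = 6.69e-07) with a peak at ZT19.5 under NRF and ZT10.3 under DRF, and Lipc and Lipa did not pass.

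In the list of other transport and binding genes, 4 of 13 differed in rhythm and 3 in mean level. Slc27a1, the fatty acid transporter FATP1, had the lowest adjusted p of the pathway for its rhythm (1.81e-15). It was lower under DRF at ZT8, ZT12 and ZT16 (log2 -1.31, -1.81 and -0.61) and higher at ZT0, ZT4, ZT20 and ZT24 (0.89, 0.89, 0.74 and 1.17), with a peak at ZT11.6 under NRF and ZT23.6 under DRF. Slc27a4, Fabp7 and Cavin1 were the others with a changed rhythm, Fabp7 at a low average of 0.41 CPM. Got2, an aminotransferase also described as a plasma membrane fatty acid binding protein, rose in mean level by 0.26 (adjusted p = 5.78e-07).

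Of the 4 PPAR and RXR genes, nuclear receptors of which PPARs are known to act on Lpl, Angptl4, Cd36 and Fabp4, 3 differed in rhythm and none in mean level. Ppara was lower under DRF at ZT4, ZT8 and ZT12 (log2 -0.70, -0.84 and -0.93) and higher at ZT16, ZT20, ZT24 and ZT0 (1.09, 1.05, 0.91 and 0.91), at a low level of 2.60 to 12.1 CPM under DRF and 2.31 to 14.5 CPM under NRF. Ppard and Rxra were both higher at ZT4 (0.67 and 0.44) and lower at ZT20 (-0.44 and -0.45). Pparg, the PPAR of adipocytes, did not pass in either test (adjusted p = 0.26 for the rhythm and 0.0973 for the level).

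Of 5 measured cofactors and circulating regulators, none differed in rhythm and 1 in mean level, Apoe, which was lower under DRF (-0.40, adjusted p = 0.000781). Of the 3 genes of endothelial fatty acid transport, none differed in rhythm and 1 in mean level, Vegfb (-0.18, adjusted p = 0.0358).

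The genes with the most similar pattern were found by the Pearson correlation of the 14 group means over 14287 genes of mean CPM of at least 1, which is a description and carries no test. For Angptl8 they were Ppp1r3b (r = 0.978), Mid1ip1 (0.972) and Slc20a1 (0.97). Angptl4 ran closest to Adora2a (0.958), Cldn5 (0.917) and Txlng (0.903), and Vldlr to Cdc45 (0.946), Fam214b (0.92) and Ccne1 (0.914). Lpl was nearest to Arxes1 (0.951), Ahcyl1 (0.945) and BC049762 (0.944), Gpihbp1 to H6pd (0.919), Gm44710 (0.908) and Mpp2 (0.904), and Lmf1 to Pex6 (0.951), Aldh2 (0.911) and Ginm1 (0.9). For Cd36 they were Nudt9 (0.926), Mtus1 (0.923) and Cldn15 (0.912), for Fabp4 Hsd17b10 (0.958), Galm (0.928) and 1600014C10Rik (0.927), and for Fabp5 Aldh1a7 (0.984), C130074G19Rik (0.978) and Aldoa (0.976). All these means come from the same 56 libraries.

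Markers of other cell types moved with the regimen in part. Of 4 adipose progenitor genes (Pdgfra, Dpp4, Cd34 and Ly6a), 3 were lower in mean level under DRF, and of 4 mesothelial genes (Msln, Upk3b, Lrrn4 and Krt19) 2 were lower. All 3 blood genes (Hba-a1, Hbb-bs and Alas2) were higher under DRF, and their summed level was 179 to 742 CPM under DRF and 149 to 638 CPM under NRF. Without the 2 DRF libraries this sum was 229 to 742 CPM under DRF. No gene of the skeletal muscle list (Acta1, Ckm, Myh4, Mylpf and Tnnt3) passed in mean level in limma. The part of these cells in the values of the 9 genes was not tested.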

How the data were processed

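RNA of 56 VAT samples was sequenced as unstranded poly(A) libraries, 1 per mouse. The authors aligned reads with HISAT2 2.0.5 and counted them with featureCounts 1.5.0-p3 on mm10, as named in the submitters' processing notes. The values the authors deposited are labelled TPM, but they behaved as log2(CPM + 1) divided by exon length and multiplied by a factor per library, so they are treated here as a score. Because the deposited score keeps the steps of single reads, whole reads were recovered from it. Of the tested values, those of up to 10000 reads, 99.99% came out whole within 0.02 of a read, where 4% would by chance. Lpl and Fabp4, with at least 194361 and 229179 reads, were too abundant to test, and their annotated lengths were used as they stood. Cd36 was also above this limit and was accepted with a wider limit and tolerance. Lengths were read from GENCODE M21 for most genes and from the values for 876, and 26 of 25939 genes could not be resolved and were left out. Recovered reads numbered 31120415 to 41216503 per library, and CPM uses the authors' effective library size.

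Differences were tested with limma 3.58.1 (R 4.3.3) on log2(CPM + 1) with a trend, over all 25913 genes, with a pseudocount of 1 CPM and no filter. Time point contrasts came from a fit of the 14 groups, and mean levels and rhythm differences from a 24 h cosine per regimen. Rhythms within a regimen were tested by JTK and Lomb-Scargle p-values joined by Fisher's method (MetaCycle-type), and shifts and amplitudes by Wald tests of a joint cosine fit (CircaCompare-type), in Python 3.11.15 with scipy 1.17.1. All p-values were adjusted by Benjamini-Hochberg over all genes and called at 0.05. The fits were tested on simulated data of 3000 genes, where 193 of 200 mean changes of 0.5 (log2), 198 of 200 inverted rhythms and 143 of 200 single time point changes were recovered. A count model had been planned for the event that the table held counts; as it held scores, limma was used.

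The 9 genes, the pathway lists and the marker lists were chosen with earlier results of these data known. A gene of the pathway lists is not reported here. Genes named outside the 9 are members of those lists or, by rule, the 3 genes with the highest correlation of group means. Each mouse is a separate animal, and whether cages or days were shared is not stated. The hours of food access within each phase are not given in the sources used here, so the aligned comparisons assume phases of 12 h. Alternatives were the deposited values, another pseudocount, other scalings, a filter, voom, the replicate number as a block, and leaving out ZT24, replicates or single libraries. For rhythms within a regimen they were also the limma F test of the cosine terms and JTK alone. Scaling by total reads and Lomb-Scargle alone were added after seeing the data. Promoter sequences are from RefSeq (GRCm38.p6), where windows of 4 of the 9 genes were matched.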

Additional observations from a re-analysis of the deposited data

Results flagged for a closer look

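In 17 of 126 groups of 4 mice, 1 mouse lay far from the other 3 on the log2(CPM + 1) scale, while chance alone marks about 1 group in 20. The groups are not independent, since several genes were read in the same libraries. For Lpl the mice apart were DRF ZT0 replicate 4 (12.5), DRF ZT12 replicate 4 (12.6) and, above its group, NRF ZT4 replicate 1 (13.2). For Angptl4 they were DRF ZT8 replicate 1 (5.96, low) and DRF ZT24 replicate 1 (8.99, high), and for Angptl8 NRF ZT16 replicate 3 (5.43) and NRF ZT24 replicate 1 (5.85), both low. For Gpihbp1 they were DRF ZT4 replicate 1 (6.67, high), DRF ZT8 replicate 1 (5.74, low), DRF ZT24 replicate 3 (6.71, low) and NRF ZT12 replicate 1 (7.04, high). Lmf1 was low in DRF ZT8 replicate 1 (3.83) and Cd36 in DRF ZT0 replicate 4 (11.2). Fabp4 was high in DRF ZT24 replicate 3 (14.1) and NRF ZT16 replicate 3 (13.9), and Vldlr was low in DRF ZT20 replicate 1 (6.25) and NRF ZT0 replicate 3 (5.49). The pair of libraries with epithelial transcripts accounted for 5 of these values.

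The 24 h rhythm differed between DRF and NRF by the limma interaction test for 6 genes. The adjusted p was 2.66e-09 for Angptl4, 1.94e-10 for Angptl8, 0.00541 for Gpihbp1, 0.0163 for Lmf1, 0.0180 for Cd36 and 1.03e-05 for Vldlr.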

How the results depend on the processing

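Of the 9 genes, 6 differed in rhythm, 3 in mean level, and 21 of 63 time point and 6 of 54 aligned comparisons passed, with 4 rhythms called under NRF, 5 under DRF, 2 phase shifts and 0 amplitude differences. Rhythms called under DRF numbered 2 on the deposited values and 2 without ZT24. The limma F test of the cosine terms called 3 of the 9 under NRF, without Lpl, and 5 under DRF, with Vldlr. Those 5 are thus not the same 5 genes as in the main test. JTK alone called 4 under NRF and 5 under DRF. Lomb-Scargle alone, added after seeing the data, called 0 of the 9 under NRF and 0 under DRF, with 2 and 2 at an unadjusted p below 0.05, and it called 0 of all 25913 genes under either regimen. Amplitude differences numbered 1 with genes of mean CPM below 1 left out and 1 without the 2 DRF libraries. Without those libraries 6 genes differed in mean level, with Lpl, Gpihbp1 and Cd36 added (adjusted p = 0.00836, 0.00934 and 0.0373, limma). With all 56 libraries the mean level of Gpihbp1 was 6.69 under DRF and 6.59 under NRF (log2). That of Cd36 was 11.70 and 11.61, and neither passed as different. Leaving out all mice of 1 replicate number gave 3 to 5 genes with another rhythm, 2 to 3 with another mean level, 2 to 3 rhythms under NRF, 1 to 4 under DRF and 0 to 1 phase shifts. Leaving out a replicate number or a single library gave 13 to 23 time point calls and 2 to 8 aligned calls, 18 to 23 and 4 to 8 for single libraries alone. A called value changed sign for Lmf1, whose amplitude difference was -0.0032 and became 0.0011, 0.033 and 0.014, no longer called, without ZT24, replicate 2 and replicate 3, and 0.0038, still called, without replicate 4. The cause of these changes was not tested.

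With the replicate number as a block, the counts were 6, 3, 21, 6, 2 and 0, as without it, and 13 and 12 pathway genes differed in rhythm and mean level. These pathway counts were 19 and 18 without the 2 DRF libraries, and 11 and 9 on the deposited values. They were 15 and 17 with libraries scaled by total reads. Leaving out a replicate number gave 10 to 14 and 9 to 14. Same-numbered DRF and NRF libraries of a time point correlated from -0.303 to 0.338 (28 pairs, 8 over 0.1), and 7 DRF libraries correlated best with their own number, so the number does not pair the mice. The lowest value among the 9 genes was 391 reads.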
